A study of Mus musculus with 13 samples.

Results

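The genes described are 3 embryonic globins, Hbb-bh1, Hbb-y and Hba-x, and 3 other genes of the red cell lineage, Alas2, Slc4a1 and Rhag, which are 6 of the 15019 genes tested. They were chosen by the measured intensity of Hbb-bh1, seen to be high on the region arrays numbered 1, and by their place in the red cell lineage, so their pattern over those arrays is given as a description. A probe set is a group of short probes for 1 transcript. On the array, 12 probe sets carried the symbol of 1 of these genes and no other symbol, and for each gene the probe set with the highest mean log2 intensity over the 13 arrays was used. The bladder (3 arrays, replicates 2, 6 and 8), the urethra (3 arrays, replicates 1, 2 and 6) and the urogenital sinus (4 arrays, replicates 1, 2, 6 and 7) came from mouse embryos at embryonic day 14. FVB/N females had been mated to males with the SMGA/EGFP transgene, in which the promoter of the smooth muscle gamma-actin gene Actg2 drives a green fluorescent protein, and all 3 regions are labelled as SMGA/EGFP transgenic, strain FVB/N and sex unknown. Regions were microdissected by that fluorescence, so no red cells were sorted and none were removed by a stated step. By the form of the footplates, the embryos of replicates 6, 7 and 8 had reached Theiler stage 22 and those of replicates 1 and 2 Theiler stage 21. The newborn reference (3 arrays) was RNA of whole wild-type FVB/N mice, 4 males and 4 females pooled, at postnatal day 1.

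Red cells of the mouse embryo come in successive waves. Primitive red cells arise in the yolk sac, circulate with their nuclei and mature in the blood, and they make the embryonic globins: Hbb-bh1 and Hbb-y are beta-like chains and Hba-x, zeta-globin, is the alpha-like chain. Definitive red cells arise later in the fetal liver and make mainly adult alpha- and beta-globins. Within the beta-like locus on chromosome 7, Hbb-y and Hbb-bh1 lie at the end opposite to the adult genes, and Hba-x neighbours an adult alpha-globin gene on chromosome 11. Hbb-bh1 is expressed early in primitive cells and Hbb-y later, as the cells mature. Alas2 makes the first, rate-limiting enzyme of haem synthesis in red cells. Slc4a1 is band 3, the anion exchanger that anchors the red cell skeleton to the membrane, and Rhag is the glycoprotein that carries the Rh complex.

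The promoters of 4 of the 6 genes were in the RefSeq table for GRCm38.p6, and the 250 bases before each start are shown because sequence elements bound by erythroid factors lie there in many red cell genes. GATA1 binds GATA motifs, KLF1 binds CACCC boxes and a CCAAT box is a common promoter element. Capitals mark the letters GATAA or a CACCC box or a CCAAT box on either strand, so that TTATC is GATAA on the strand opposite to the one printed, GGGTG is likewise CACCC there, and ATTGG is CCAAT. Hbb-y lies at chr7:103853208-103853457 on the minus strand, Hba-x at chr11:32276350-32276599 on the plus strand, Alas2 at chrX:150547167-150547416 on the plus strand and Rhag at chr17:40810899-40811148 on the plus strand, and each sequence is given 5' to 3' along its gene.
Hbb-y: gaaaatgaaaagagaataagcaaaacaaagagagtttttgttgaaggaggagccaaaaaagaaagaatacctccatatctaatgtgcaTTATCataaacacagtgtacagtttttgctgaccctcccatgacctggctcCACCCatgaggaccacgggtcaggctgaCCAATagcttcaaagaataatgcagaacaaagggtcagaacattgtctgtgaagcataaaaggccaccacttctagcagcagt
Hba-x: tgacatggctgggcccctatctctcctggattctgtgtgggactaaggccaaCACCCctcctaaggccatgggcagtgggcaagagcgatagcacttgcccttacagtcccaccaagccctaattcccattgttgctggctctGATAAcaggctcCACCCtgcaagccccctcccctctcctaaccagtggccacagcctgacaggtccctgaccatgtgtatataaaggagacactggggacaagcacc
Alas2: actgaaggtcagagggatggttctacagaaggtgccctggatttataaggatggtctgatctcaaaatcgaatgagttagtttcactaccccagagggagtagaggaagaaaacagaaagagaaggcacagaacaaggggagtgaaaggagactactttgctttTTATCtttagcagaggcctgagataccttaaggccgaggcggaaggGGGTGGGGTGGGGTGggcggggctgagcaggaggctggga
Rhag: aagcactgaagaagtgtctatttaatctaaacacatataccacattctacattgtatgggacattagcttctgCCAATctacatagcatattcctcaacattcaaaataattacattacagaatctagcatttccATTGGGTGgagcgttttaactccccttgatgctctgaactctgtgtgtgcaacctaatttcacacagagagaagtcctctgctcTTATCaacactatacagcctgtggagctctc

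Each of these 4 windows held GATAA 1 time. The letters CACCC occurred 1 time in Hbb-y, 2 times in Hba-x, 3 times in Alas2 and 1 time in Rhag, where it overlapped a CCAAT on the same strand. CCAAT occurred 1 time in Hbb-y and 2 times in Rhag, and the letters were not in the Hba-x or Alas2 windows. Of 27025 promoter windows of the same length, 23.0% held GATAA, 51.3% CACCC, 34.5% CCAAT, 10% both GATAA and CACCC, and 3.47% all 3. Counted from the start, the GATAA match began at position -162 in Hbb-y, -107 in Hba-x, -86 in Alas2 and -31 in Rhag. The CACCC nearest to it began at -111 in Hbb-y and -95 in Hba-x, and the 3 matches of Alas2 lay in a row from -40, -35 and -30. A match is a run of letters, and binding was not measured.

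All values are log2 of the deposited intensity. Intensities were floored at 5.65 on this scale, and 7.39 was the filter level, used as a stand-in for the detection limit: a gene was tested if at least 3 arrays exceeded it. The median intensity of the region arrays ranged from 142 to 389 on the linear scale, and the log2 ratio of 3' to 5' actin probe sets, which grows as transcripts are shortened, ranged from 1.21 to 4.04. Bladder replicate 8 had the highest of these ratios, 4.04, and urethra replicate 1 the next among region arrays, 3.42. Urogenital sinus replicate 1 had the highest median intensity and the highest mean of the labelling spike-in probe sets, 13.70 in log2 intensity against 11.90 to 13.39 on the other region arrays. Actg2, on which the dissection rested, had 13.51 to 13.97 in the bladder, 12.89 to 13.65 in the urethra and 7.99 to 10.77 in the urogenital sinus, and Foxa1 and Shh, made by the epithelium of these organs, had 12.85 to 14.90 and 13.90 to 16.28 on the 10 region arrays. Values on the 2 arrays numbered 1 are given below for the urogenital sinus and then the urethra.

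Hbb-bh1, the early beta-like globin of primitive red cells, had 9.06, 8.03 and 7.41 in bladder replicates 2, 6 and 8. In the urethra it had 14.51, 10.17 and 8.49 in replicates 1, 2 and 6, and in the urogenital sinus 15.04, 10.51, 8.44 and 8.51 in replicates 1, 2, 6 and 7. Newborn reference arrays had 7.05, 5.65 and 5.65. Both arrays numbered 1 stood far above the other region arrays, replicates numbered 2 came next, and stage 22 arrays were lowest within each region. No newborn array reached the filter level, and 2 of them were at the floor. Another Hbb-bh1 probe set, the dimmest of 3, was also highest on the arrays numbered 1, but most other arrays were at or near the floor and have no order there: it had 12.72 and 12.18 on the arrays numbered 1, 7.90 on urogenital sinus replicate 2, and 5.65 to 6.16 on the other 7 region arrays.

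Hbb-y, the beta-like globin of later primitive red cells, had 15.89, 15.48 and 15.19 in bladder replicates 2, 6 and 8. It had 16.37, 16.45 and 15.85 in urethra replicates 1, 2 and 6, and 16.74, 15.37, 15.65 and 15.57 in urogenital sinus replicates 1, 2, 6 and 7. In the newborn reference it had 10.55, 10.11 and 9.0. The region arrays spanned 1.54 for Hbb-y, against 7.63 for Hbb-bh1, and all lay above the newborn arrays. On the region arrays this Hbb-y probe set was among the brightest, at rank 18 to 227 of 45037, and whether brightness limits its span was not tested. The probe set used has an x suffix, which marks probes that can also bind related transcripts. With the Hbb-y probe set that has no x suffix, the 10 region arrays had 11.62 to 14.40, a span of 2.78, and all 3 newborn arrays were at the floor.

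Hba-x, the embryonic alpha-like globin, had 9.02, 7.72 and 8.74 in bladder replicates 2, 6 and 8. In urethra replicates 1, 2 and 6 it had 11.66, 9.95 and 8.10, and in urogenital sinus replicates 1, 2, 6 and 7 it had 11.06, 9.45, 8.30 and 7.99. The newborn arrays had 6.13, 6.72 and 6.48, all under the filter level. As for Hbb-bh1, the arrays numbered 1 were highest in their region and those numbered 2 came next.

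Alas2, the haem synthesis enzyme, ran in the other direction. It had 9.08, 9.06 and 7.65 in bladder replicates 2, 6 and 8, 8.63, 9.94 and 9.55 in urethra replicates 1, 2 and 6, and 8.32, 8.74, 9.57 and 9.13 in urogenital sinus replicates 1, 2, 6 and 7. Newborn arrays had 12.05, 12.26 and 12.58. Here the arrays numbered 1 were the lowest of their own region, and every newborn array was above every region array.

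Slc4a1, band 3, had 8.87, 8.83 and 8.17 in bladder replicates 2, 6 and 8. It had 11.48, 10.20 and 8.30 in urethra replicates 1, 2 and 6 and 12.45, 9.62, 9.25 and 8.91 in urogenital sinus replicates 1, 2, 6 and 7. On the newborn arrays it had 14.07, 14.32 and 14.45. Slc4a1 shared with Hbb-bh1 and Hba-x the high values on the arrays numbered 1, but unlike them it was highest in the newborn. The probe set used can also bind related transcripts, by its x suffix, and the other kept Slc4a1 probe set, without it, had 7.47 to 10.35 on the region arrays and 12.66 to 12.83 on the newborn arrays.

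Rhag, the Rh-associated glycoprotein, had 5.65, 5.87 and 5.65 in bladder replicates 2, 6 and 8. It had 7.10, 5.65 and 6.47 in urethra replicates 1, 2 and 6, and 5.93, 5.65, 6.49 and 5.65 in urogenital sinus replicates 1, 2, 6 and 7. The newborn arrays had 9.65, 9.02 and 10.12. All 10 region arrays were under the filter level, and Rhag was tested only because of the newborn arrays; the other 5 genes exceeded the filter level on all 10 region arrays.

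**Figure D1:**
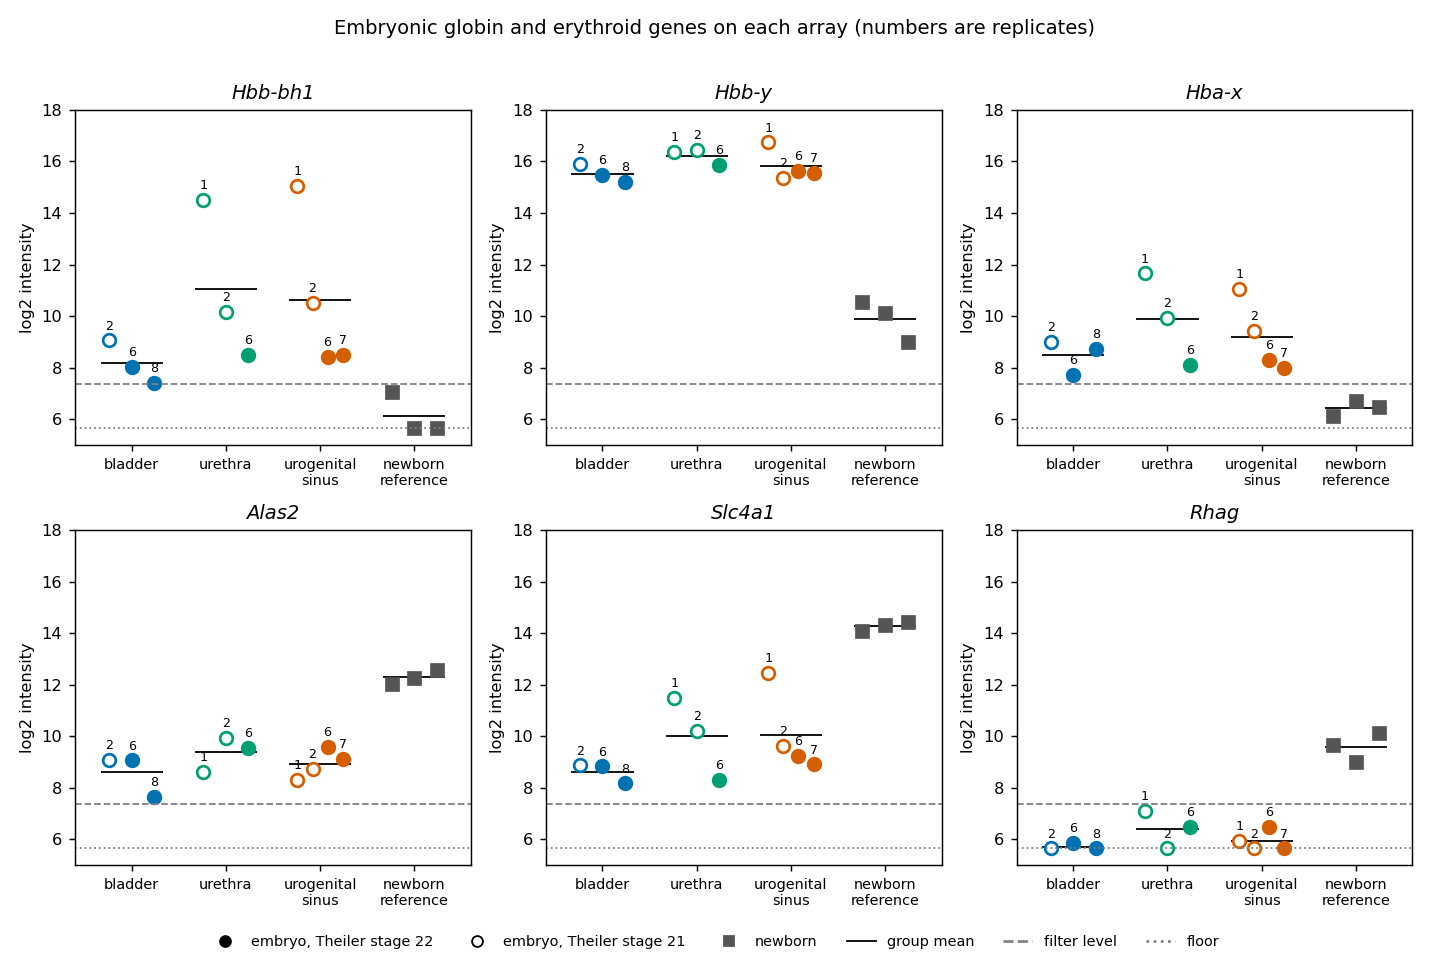
Log2 intensity (vertical axes) of the 6 genes on each array, by region and in the newborn reference; filled circles are stage 22 embryos, open circles stage 21 embryos, squares newborn arrays, short lines group means, and numbers replicates. Hbb-bh1 reaches 15.04 and 14.51 on the arrays numbered 1, Hbb-y stays between 15.19 and 16.74 in the regions, and Rhag is under the filter level on all region arrays.

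The arrays numbered 1 differed by gene, and these values are what the choice of genes rested on. Hbb-bh1 was 5.88 above the mean of the other urogenital sinus arrays on replicate 1 and 5.18 above that of the other urethra arrays. Hba-x was 2.48 and 2.63 above, Slc4a1 3.19 and 2.23 above, and Hbb-y 1.21 and 0.22 above. Alas2 differed by -0.83 and -1.12 on the same arrays, below its region. Rhag was level in the urogenital sinus and 1.04 above in the urethra, with both values under the filter level. For 3 of the 6 genes (Hbb-bh1, Hba-x and Slc4a1) both arrays numbered 1 were above all other 8 region arrays, a pattern that 1624 of the 15019 genes (10.8%) had. Hbb-bh1 was the only gene tested in which both arrays exceeded the other 8 by at least 2 on the log2 scale.

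The brightest adult globin probe sets were not highest on the arrays numbered 1. A probe set annotated to 4 adult beta-globin genes, for which no single gene can be named, had 14.56 and 13.65 on the arrays numbered 1, within the 13.02 to 15.63 of the other 8 region arrays. Its highest value was on urethra replicate 2, the array on which Alas2 was also highest. The 3 probe sets annotated to a pair of adult alpha-globin genes were also highest on urethra replicate 2, at 15.30, 15.70 and 15.64. They came next on the arrays numbered 1. Urogenital sinus replicate 1 had 14.69, 15.01 and 14.94, and urethra replicate 1 had 14.26, 14.79 and 14.79. The remaining region arrays had 11.42 to 14.24, 12.34 to 14.76 and 11.71 to 14.71 in the same order of probe sets. Hbb-b2, an adult beta-globin gene, has 2 dimmer probe sets of its own. The one used had 10.70 on urogenital sinus replicate 1, its highest region array, and 8.38 on urethra replicate 1, within the 7.35 to 9.92 of the other 8. The other, with an x suffix, had 8.496 and 7.27 on the arrays numbered 1 and was highest on urethra replicate 2, at 9.75.

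Over the 10 region arrays, Pearson correlations with Hbb-bh1 were 0.97 for Slc4a1, 0.93 for Hba-x, 0.80 for Hbb-y, 0.40 for Rhag and -0.23 for Alas2. Over the 8 arrays not numbered 1 they were 0.84, 0.76, 0.49, -0.29 and 0.44 in the same order of genes. Alas2 lay closer to Hbb-y over those 8 arrays, with a correlation of 0.81, against 0.20 over all 10. These correlations describe arrays that share a scaling and rest on few points.

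**Figure D2:**
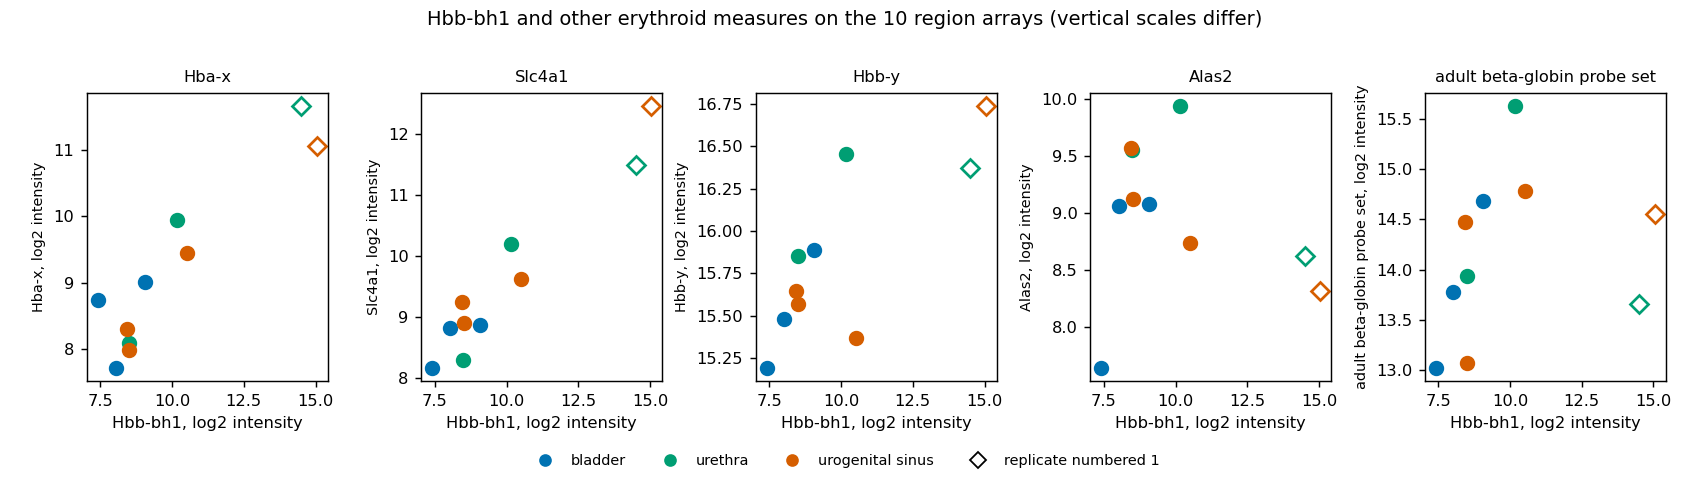
Log2 intensity of Hbb-bh1 (horizontal axes) against Hba-x, Slc4a1, Hbb-y, Alas2 and the probe set annotated to 4 adult beta-globin genes (vertical axes, scales differ) on the 10 region arrays; colours are regions and open diamonds the arrays numbered 1. Slc4a1 runs with Hbb-bh1 (r = 0.97), whereas the diamonds are low for Alas2 and mid-range for the adult beta-globin probe set.

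Against the newborn reference, Hbb-y was higher in the embryonic regions and Alas2 and Slc4a1 were lower, as was Rhag, which was tested only because it was high in the newborn. Each difference is the mean of the 3 region means minus the newborn mean, tested with limma over all genes and adjusted by the Benjamini-Hochberg method; the newborn arrays repeat 1 kind of pooled RNA and entered as 1 sample. Hbb-y averaged 15.52 ± 0.35 in the bladder (SD, n = 3), 16.22 ± 0.32 in the urethra (SD, n = 3) and 15.83 ± 0.61 in the urogenital sinus (SD, n = 4), against 9.89 in the newborn reference. Its difference was 5.97 (SE 0.46), or 62.8-fold, with a limma adjusted p of 1.33e-05. Alas2 had a difference of -3.32 (SE 0.67, limma adjusted p = 0.00804), lower in the regions. Slc4a1 had -4.72 (SE 1.26, limma adjusted p = 0.0305), 26.4-fold lower, and its call was lost without bladder replicate 8 (adjusted p = 0.0516). Rhag, under the filter level in the regions, was at least 4.61-fold lower there, with means of 6.01 over the 10 region arrays and 9.60 in the newborn reference and a limma adjusted p of 0.000661.

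Hbb-bh1 and Hba-x did not pass this test, although every region array was above every newborn array for both. Against the filter level in the newborn, the mean of Hbb-bh1 was at least 5.89-fold higher in the regions, with means of 9.95 over the region means and 6.12 in the newborn reference (limma adjusted p = 0.34). The mean of Hba-x was at least 3.50-fold higher, with means of 9.20 and 6.44 in the same order (limma adjusted p = 0.186). These bounds allow for newborn values under the filter level, not for the spread among arrays. The arrays numbered 1 raise both region means: the other 8 region arrays averaged 8.83 for Hbb-bh1 and 8.66 for Hba-x. Without both arrays numbered 1 the differences were 2.77 for Hbb-bh1 (adjusted p = 0.0851) and 2.26 for Hba-x (adjusted p = 0.0935), while Hbb-y kept 5.85 (adjusted p = 1.51e-05), Alas2 -3.13 (adjusted p = 0.00964) and Slc4a1 -5.23 (adjusted p = 0.00164).

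In all, 1 of the 6 genes was called higher in the regions, where 5.43% of genes tested were, and 3 were called lower, Rhag among them, where 10.3% were; 15.8% of genes were called in either direction. The groups did not overlap for any of the 6 genes, with 3 genes higher and 3 lower in the regions on every array, against 21.8% of genes tested that did not overlap (7.66% higher and 14.1% lower in the regions). Rhag had to be higher in the newborn to be tested at all. With the 3 newborn arrays entered as 3 samples, though they repeat 1 kind of pooled RNA, Hbb-bh1 (3.83, adjusted p = 0.0259) and Hba-x (2.76, adjusted p = 0.00501) were also called. The same 3 arrays with the style of the sample title added as a block gave 3.57 (adjusted p = 0.0489) and 2.71 (adjusted p = 0.0133). The titles are written in 3 styles, and the labels do not say whether these mark batches. In RNA from whole tissue, fewer red cells and less RNA of a gene per red cell cannot be told apart.

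The brightest adult globin probe sets were lower in the regions than in the newborn, whereas the dim Hba-a2 probe set was level, at 7.31 and 7.29. The probe set annotated to 4 adult beta-globin genes had 13.02 to 15.63 on the 10 region arrays, with a mean of 14.15, and 16.40 to 16.67 in the newborn reference. The 3 alpha-globin probe sets with several symbols differed by -3.18, -2.61 and -2.72 on the log2 scale, and their region and newborn arrays did not overlap. These probe sets were outside the test because they have several symbols. Hbb-b2 averaged 8.58 in the regions and 9.93 in the newborn reference, a difference of -1.35 (SE 1.07, limma adjusted p = 0.471). The Hbb-b2 probe set with an x suffix had 5.65 to 9.75 on the region arrays and 11.16 to 12.68 in the newborn reference, a difference of -4.58 without overlap, so the 2 probe sets of this gene disagree in size.

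The rest of the red cell programme was taken from 5 lists, of which 59 genes were tested, and over all genes the median difference between regions and newborn was -0.08. Of 14 genes of the red cell membrane, 0 were called higher and 8 lower in the regions, with a median of -2.35; Icam4 passed the filter only through the newborn arrays. Ank1, the ankyrin that ties band 3 to the skeleton, averaged 8.71 in the regions and 12.33 in the newborn reference and had a difference of -3.62 (SE 0.84, limma adjusted p = 0.0163). The 3 other brightest genes of that list did not pass: Gypc, glycophorin C, differed by 0.25, Add2, beta-adducin, by -1.51 and Tspan33 by -2.25 (adjusted p = 0.758, 0.269 and 0.0875).

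Of 16 genes of haem synthesis and iron, 0 were called higher and 4 lower, with a median of -0.80. Fech, which inserts iron into the ring as the last step of haem synthesis, averaged 12.78 in the regions and 14.98 in the newborn reference, a difference of -2.20 (SE 0.38, limma adjusted p = 0.00349). The other called genes, named after their values were seen, were Slc25a37, the mitochondrial iron importer (-1.45, adjusted p = 0.031), Flvcr1 (-2.59, adjusted p = 0.0186), and Tfr2, transferrin receptor 2 (-2.51, adjusted p = 0.0167). Urod, an enzyme of haem synthesis, Tfrc, the transferrin receptor, and Tmem14c, a mitochondrial porphyrin carrier, differed by -0.95, -0.77 and -0.57 and did not pass (adjusted p = 0.194, 0.116 and 0.297).

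Among 15 erythroid regulators, with a median of -1.31, 1 was called in each direction. Gata2, a factor of blood progenitors that is also expressed outside blood, averaged 12.71 in the regions and 10.79 in the newborn reference, a difference of 1.92 (SE 0.49, limma adjusted p = 0.0265). Sox6, named after its value was seen and known to silence Hbb-y in definitive cells, had -2.31 (adjusted p = 0.0168). Klf3, Bcl11a and Lmo2 differed by 0.10, -0.58 and -1.20 and did not pass (adjusted p = 0.894, 0.461 and 0.0607). Of 11 other erythroid genes, 0 were called higher and 3 lower, with a median of -1.30, and 2 of them passed the filter only through the newborn arrays. Car2, carbonic anhydrase 2, averaged 11.95 in the regions and 14.16 in the newborn reference (difference -2.21, SE 0.37, limma adjusted p = 0.00293); the others, named after their values were seen, were Hemgn and Car1, the pair that passed the filter through the newborn. Their region means, 6.45 for Hemgn and 6.08 for Car1, were under the filter level, against newborn means of 12.54 and 9.63, so the size of either difference is set in part by the floor. Prdx2, Xpo7 and Bpgm differed by 0.30, 0.08 and -0.85 without passing (adjusted p = 0.594, 0.894 and 0.245). None of the 3 adult globin genes with a probe set of their own was called. Beside Hbb-b2, Hba-a2 was at 0.02 and Hba-a1 at -1.12 (adjusted p = 0.989 and 0.319). Hba-a1 passed the filter only through the newborn arrays, and its region and newborn means, 6.00 and 7.12, were both under the filter level. At an unadjusted p under 0.05 these 3 globins had 0 calls, and 4221 of all genes passed.

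**Figure D3:**
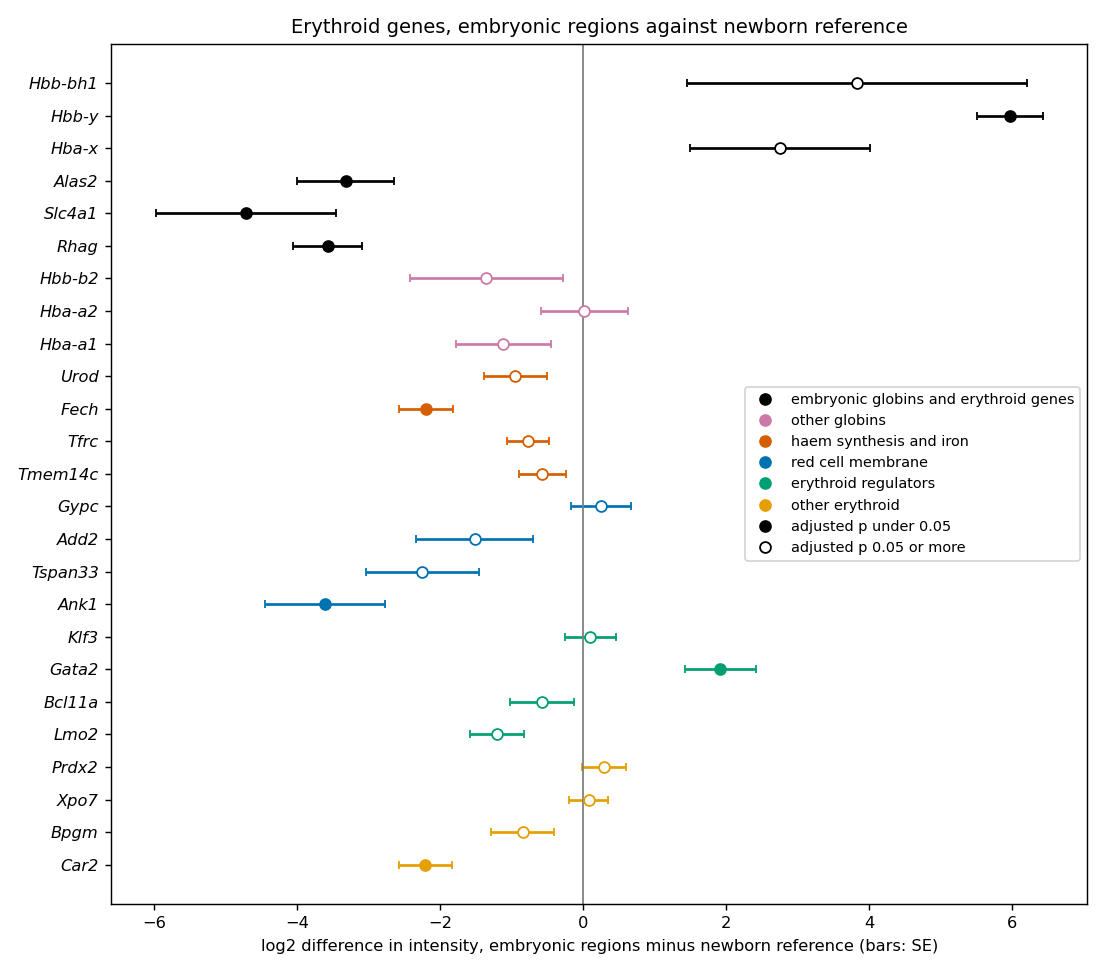
Log2 difference in intensity, embryonic regions minus newborn reference (horizontal axis, bars are SE), for the 6 genes and for the brightest genes of 5 other erythroid lists; filled points have an adjusted p under 0.05. Hbb-y lies at 5.97, and Alas2 and Slc4a1 lie at -3.32 and -4.72; the point of Rhag rests on region values under the filter level.

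Between the 3 regions, 0 of the 6 genes were called. In the bladder against the urogenital sinus, 2.54% of genes were called, and all 6 genes had a negative difference, with a median of -0.19 over all genes. That shared direction depends on the scaling: 3 of the 6 differences (Hbb-y, Alas2 and Rhag) were positive with arrays centred on their medians, and 2 (Alas2 and Rhag) with quantile normalization. The urethra and the urogenital sinus differed in 0.0133% of genes, and the bladder and the urethra in 4.33%. In all 3 comparisons, 0 of the 6 genes passed limma even at an unadjusted p of 0.05, in a fit without a term for the replicate number. With that term, 0 of the 6 genes were called at an adjusted p under 0.05. The SE of Hbb-bh1 between bladder and urogenital sinus was then smaller. Hbb-bh1 averaged 8.17 ± 0.83 in the bladder (SD, n = 3), 11.05 ± 3.11 in the urethra (SD, n = 3) and 10.63 ± 3.10 in the urogenital sinus (SD, n = 4). Its difference between bladder and urogenital sinus was -2.46 (95% interval -6.31 to 1.40, limma adjusted p = 0.479), between urethra and urogenital sinus 0.43 (-3.43 to 4.28, adjusted p = 0.96), and between bladder and urethra -2.89 (-7.01 to 1.24, adjusted p = 0.352). The bladder has no array numbered 1. Without both of those arrays the differences were -0.99 between bladder and urogenital sinus (adjusted p = 0.58), 0.17 between urethra and urogenital sinus (adjusted p = 0.956) and -1.16 between bladder and urethra (adjusted p = 0.418).

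Hbb-y gave the narrowest intervals of the globins. Its difference between bladder and urogenital sinus was -0.31 (95% interval -1.07 to 0.44), between urethra and urogenital sinus 0.39 (-0.36 to 1.15), and between bladder and urethra -0.70 (-1.51 to 0.10). The order of its means was urethra, urogenital sinus and bladder, and the arrays of neighbours in that order overlapped. Slc4a1 averaged 8.62 ± 0.39 in the bladder and 9.997 ± 1.60 in the urethra (SD, n = 3 each). In the urogenital sinus it averaged 10.06 ± 1.62 (SD, n = 4). Its difference between bladder and urogenital sinus was -1.43 (95% interval -3.48 to 0.62). On the probe set used, the highest bladder array (replicate 2, 8.87) was only just under the lowest urogenital sinus array (replicate 7, 8.91). The other kept Slc4a1 probe set overlapped between these regions, with bladder replicate 2 at 8.59, above urogenital sinus replicate 7 at 7.49. Alas2 averaged 8.60 ± 0.82 in the bladder, 9.37 ± 0.67 in the urethra (SD, n = 3 each) and 8.94 ± 0.54 in the urogenital sinus (SD, n = 4). Rhag was under the filter level in all 3 regions, so no fold is given. Of 59 genes tested from the 5 other erythroid lists, Sox6 (-1.98, limma adjusted p = 0.0363) and Kel, a red cell membrane antigen (adjusted p = 0.0434), were called between bladder and urogenital sinus, where 2.54% of all genes were. Tfrc (0.98, adjusted p = 0.0467) and Bcl11a, a silencer of embryonic globins (-1.54, adjusted p = 0.0419), were called between bladder and urethra, where 4.33% of all genes were. Kel had 5.65 to 6.19 in the bladder, under the filter level, and 6.76 to 7.82 in the urogenital sinus, around that level, so no fold is given. Kel and Sox6 were named after their values were seen.

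Hbb-bh1 and Hba-x were lower on every stage 22 array than on every stage 21 array. Hbb-bh1 had 7.41, 8.03, 8.44, 8.49 and 8.51 on the 5 stage 22 arrays, against 9.06, 10.17, 10.51, 14.51 and 15.04 on the 5 stage 21 arrays. Hba-x had 7.72, 7.99, 8.10, 8.30 and 8.74 at stage 22, against 9.02, 9.45, 9.95, 11.06 and 11.66 at stage 21. For both genes all 5 stage 22 arrays lay below all 5 stage 21 arrays, which 3.52% of genes tested did; 2.22% had all stage 22 arrays above. Hbb-y overlapped between stages on the probe set used (15.19 to 15.85 at stage 22, against 15.37 to 16.74 at stage 21), whereas the Hbb-y probe set without the x suffix had 11.62 to 12.31 at stage 22, against 13.08 to 14.40 at stage 21, without overlap.

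Both arrays numbered 1 are at stage 21, so stage differences with them are a description. With region as a covariate, these differences, stage 22 minus stage 21, were -3.33 for Hbb-bh1, -1.90 for Hba-x, -1.67 for Slc4a1, -0.51 for Hbb-y, 0.22 for Alas2 and 0.18 for Rhag. No gene of the 15019 was called by limma between stages (0%), with 3830 at an unadjusted p under 0.05, and these included 3 of the 6 genes. Without the arrays numbered 1, Hbb-bh1 had 7.41 to 8.51 on the 5 stage 22 arrays, against 9.06 to 10.51 on the 3 remaining stage 21 arrays, a difference of -1.69 (SE 0.27, limma adjusted p = 0.174). Hba-x had 7.72 to 8.74 at stage 22, against 9.02 to 9.95 at stage 21, a difference of -1.26 (SE 0.34, limma adjusted p = 0.175). On those 8 arrays 4.92% of genes had all stage 22 arrays below all stage 21 arrays, and 3.2% had them above. The 3 stage 21 arrays among them are all numbered 2, so stage and replicate number cannot be told apart there. Whether the number marks an embryo or a litter is not in the labels.

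On the probe set used, Slc4a1 was lower at stage 22 within each region but overlapped across regions. It had 8.17 to 9.25 at stage 22, against 8.87 to 12.45 at stage 21. The other kept Slc4a1 probe set overlapped within the urogenital sinus, with replicate 6 (stage 22) at 9.08 and replicate 2 (stage 21) at 9.04. Alas2 did not go with the globins: it had 7.65 to 9.57 at stage 22, against 8.32 to 9.94 at stage 21. Of 8 adult globin probe sets, 1 did not overlap between stages: the Hbb-b2 probe set used had 7.35 to 8.31 at stage 22, against 8.38 to 10.70 at stage 21. The other 7 overlapped. Among them, the Hbb-b2 probe set with an x suffix had 5.65 to 7.65 at stage 22, against 7.27 to 9.75 at stage 21, and the probe set annotated to 4 adult beta-globin genes had 13.02 to 14.47 at stage 22, against 13.65 to 15.63 at stage 21. The 3 probe sets annotated to a pair of adult alpha-globin genes, and the Hbb-b2 probe set with an x suffix, were lower at stage 22 within each region. Means of the alpha-globin probe sets were 12.20, 13.08 and 12.72 at stage 22, against 14.27, 14.77 and 14.65 at stage 21. Hba-a1 had means of 6.04 and 6.00 in the same order, both under the filter level, so its stage difference cannot be read.

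Of the markers of other cells, limma called none between stages, in the fit that includes both arrays numbered 1. The median difference was -0.79 for the 12 genes of the urothelium and sinus epithelium and -0.48 for the 9 of megakaryocytes and platelets. It was -0.38 for the 13 of macrophages and -0.31 for the 14 of endothelium, against -0.11 over all genes. At an unadjusted p under 0.05 these lists had 4, 1, 2 and 5 genes. Medians were -0.17 for the 12 liver genes, -0.08 for the 10 of granulocytes and lymphocytes and 0.27 for the 8 of contractile smooth muscle. Those lists had 0, 0 and 2 genes at that level. Chosen after their values were seen, Krt18, a keratin of simple epithelia, differed by -1.50 (adjusted p = 0.077), Plvap, of fenestrated endothelium, by -1.71 (adjusted p = 0.0919), C1qa, a complement gene of macrophages, by -1.45 (adjusted p = 0.0969) and Pf4, a platelet chemokine, by -1.52 (adjusted p = 0.123), while Ptprc, the leukocyte surface phosphatase CD45, differed by 1.62 (adjusted p = 0.116). Their part in the stage values of the erythroid genes was not tested.

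**Figure D4:**
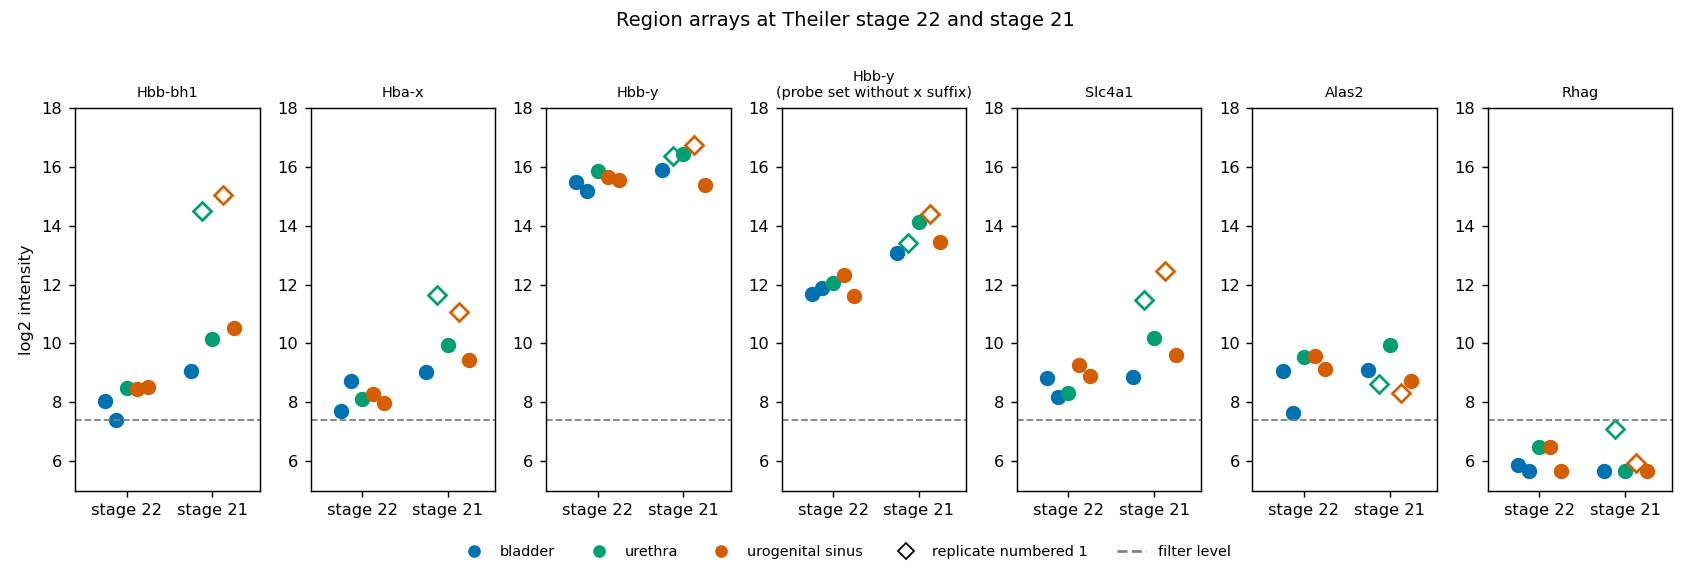
Log2 intensity (vertical axes) of 7 probe sets on the region arrays at stage 22 and stage 21; colours are regions, open diamonds the arrays numbered 1 and the dashed line the filter level. Hbb-bh1, Hba-x and the Hbb-y probe set without the x suffix do not overlap between stages, and Alas2 does.

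Outside the 6 genes, those most like Hbb-bh1 by Pearson correlation over the 10 region arrays were Tnfrsf25 (0.978), Zbtb48 (0.972) and Trim11 (0.971). Next came Bptf, Wdr6, Ndufa13, Gsto1, Zfpm1 (0.955), Tcn2 and Efcc1 (0.955). Slc4a1, 1 of the 6 genes and so not ranked here, had 0.965, between Trim11 and Bptf. Of the ranked genes, only Zfpm1, the GATA1 cofactor FOG1, was on an erythroid list. It had 10.77 and 10.61 on the arrays numbered 1 and 8.64 to 9.88 on the other 8. Tnfrsf25 had 9.48 and 9.02 on the arrays numbered 1 and 7.54 to 8.40 on the other 8, a far smaller span than Hbb-bh1. Efcc1 was under the filter level on all 10 region arrays. Over the 8 arrays not numbered 1, the 5 most like genes were Snord104 (0.984), Taf6l (0.981), Hagh (0.980), Zbtb48 (0.979) and Pex6 (0.976), so that Zbtb48 was the only gene on both lists.

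Markers of other cells were read on the same arrays. On the arrays numbered 1, both were above all other 8 region arrays for 7 of 15 erythroid regulators, 6 of 13 macrophage genes, 4 of 9 genes of megakaryocytes and platelets, 3 of 14 endothelial genes, 2 of 16 genes of haem synthesis and iron, 2 of 12 genes of the urothelium and sinus epithelium, 1 of 11 other erythroid genes, 1 of 12 liver genes, 1 of 10 genes of granulocytes and lymphocytes, and 0 of 14 red cell membrane genes, 3 other globins and 8 smooth muscle genes, where 10.8% of all genes were. Over the 5 erythroid lists this was 10 of 59 genes (16.9%). The regulators were Tal1, Zfpm1, Lyl1, Klf1, Epor, Gfi1b and Nfe2, named after their values were seen; Klf1, which activates the adult beta-globin genes, had 9.53 and 9.06 on the arrays numbered 1 and 6.69 to 8.08 on the other 8. Among macrophage genes, Csf1r, the receptor for the growth factor of these cells, had 13.17 and 12.76 on the arrays numbered 1 and 10.65 to 12.02 on the other 8. Other genes of that list, chosen after their values were seen, ran differently: Ptprc had 5.80 and 6.69 on the arrays numbered 1, below the 7.97 to 9.74 of the other 8, and Mrc1, the mannose receptor, had 11.63 and 9.74, against 9.92 to 12.66. Pf4 had 13.06 and 12.00 on the arrays numbered 1 and 9.24 to 11.17 on the other 8.

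Summed intensity of the 9 megakaryocyte and platelet genes was 7322 to 13874 on the arrays numbered 1 and 2737 to 5993 on the other 8, and that of the 13 macrophage genes was 18965 to 25273 and 8341 to 17508 in the same order. For the 12 liver genes the sums were 7108 to 30957 on the arrays numbered 1 and 1535 to 20518 on the other 8. Afp, a liver and yolk sac protein, was at 14.57 on urogenital sinus replicate 1 and 13.79 on replicate 6, and Alb, albumin, at 10.75 and 11.18 on the same arrays. Afp came next on urethra replicates 2 and 1, at 12.28 and 12.14. Hbb-bh1 was 15.04 and 8.44 on urogenital sinus replicates 1 and 6, and 10.17 and 14.51 on urethra replicates 2 and 1. The part of these other cells in the values of the erythroid genes was not tested.

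The newborn reference was higher for markers of most of these cell types. The 12 liver genes summed to 1535 to 30957 on region arrays and 557108 to 715856 on newborn arrays, with 11 of 12 called lower in the regions and a median of -7.65; 4 passed the filter only through the newborn. Of 10 genes of granulocytes and lymphocytes 7 were called lower (median -5.22, 7 passed the filter through the newborn alone), of 13 macrophage genes 6 (median -2.09) and of 9 megakaryocyte and platelet genes 2 (median -1.59). Of 14 endothelial genes limma called 0 (median -0.12), with 2 at an unadjusted p under 0.05. Of 8 contractile smooth muscle genes 1 was called higher and 1 lower (median -0.77), and of 12 genes of the urothelium and sinus epithelium 2 were called higher and 1 lower (median 0.01). Their part in the difference of the erythroid genes was not tested.

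**Figure D5:**
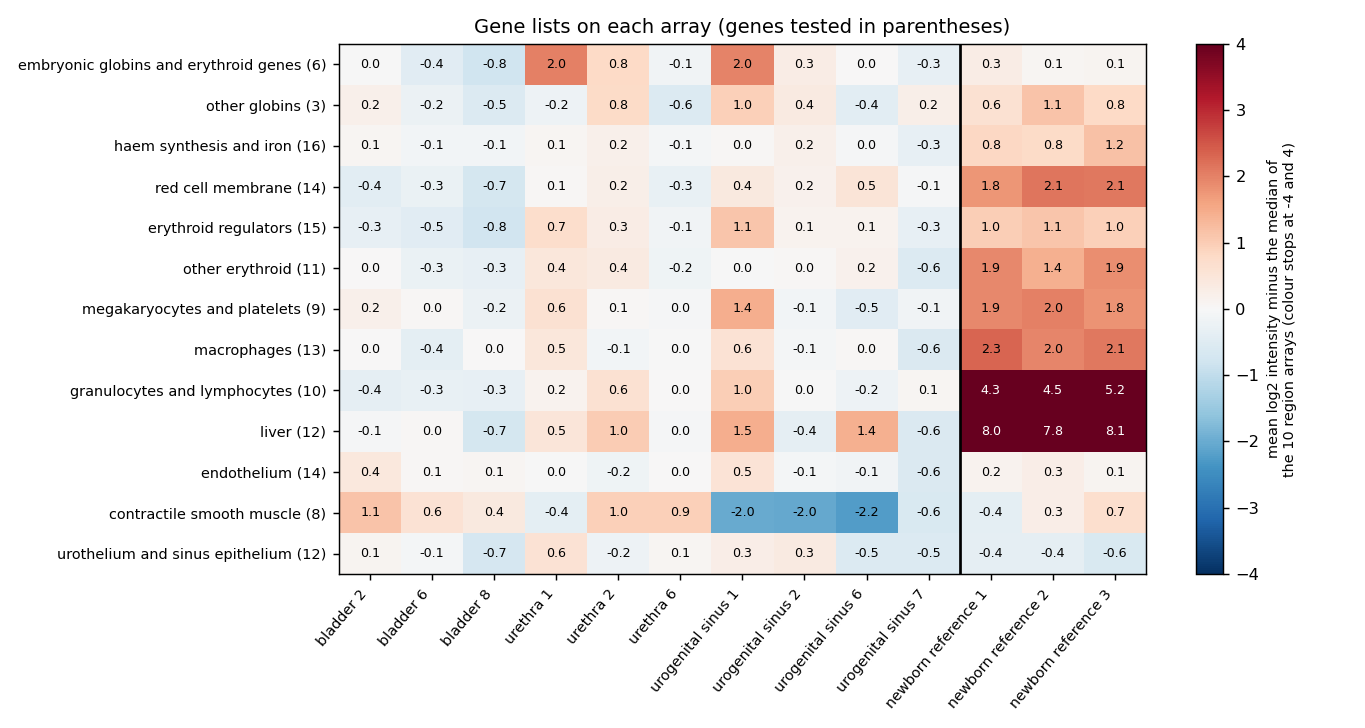
Mean log2 intensity of each gene list on each array minus the median of that mean over the 10 region arrays (colour, with the value printed), with the region arrays left of the newborn arrays. The mean of the 6 genes stands at 1.98 and 2.02 on the arrays numbered 1, with Hbb-bh1 far above and Alas2 below its region there, and the liver genes at 7.8 to 8.1 on the newborn arrays.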

How the data were processed

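RNA of 10 region samples and 3 newborn reference samples was amplified in 2 rounds and hybridized to Affymetrix MOE430 arrays, per the labels' protocols. The authors deposited linear intensity values for 45101 probe sets in 1 table. GCOS, the Affymetrix software, is named in the submitters' processing notes with no version. The 2% trimmed mean was 1500 on every array, so no further scaling was applied. Intensities were floored at the 20th percentile (50.23) and log2 transformed. Of 45037 probe sets other than controls, 34945 had 1 gene symbol, 932 several and 9160 none. Probe sets with at least 3 arrays above the 40th percentile (167.76) were kept, and the one with the highest mean stood for each of 15019 genes. Folds written "at least" are against this level.

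Differences were tested with limma 3.58.1 (lmFit, then eBayes with an intensity trend) under R 4.3.3, with two-sided p-values adjusted by the Benjamini-Hochberg method over all genes and called under 0.05. The regions shared 1 fit. The mean of the newborn arrays entered as 1 sample, assumed to vary like a region sample, and stage was fitted with region as a covariate. Whether the samples are separate embryos is not in the labels, so the p-values speak only to the spread among the samples, which may be technical. The number of arrays limits the precision. The genes, the lists and the tests were chosen with earlier results of these data known. Named from the lists were all 6 genes and up to 4 of the brightest per erythroid list. Also named were up to 3 genes per list of other cells and, outside the 6, the genes most correlated with Hbb-bh1. The fit was tested on simulated data. Alternatives covered scaling, floor, filter, probe set choice, limma settings, blocks, stage as a covariate and arrays left out. Promoters came from RefSeq's table; Hbb-bh1 and Slc4a1 had no entry there. Detection calls were not used here.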

Additional observations from a re-analysis of the deposited data

Results flagged for a closer look

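The difference of Alas2 between stages ran in opposite directions in a pair of regions: stage 22 minus stage 21 was -0.73 in the bladder, where both stage 22 arrays (9.06 and 7.65) were below the stage 21 array (9.08), and 0.82 in the urogenital sinus, where both stage 22 arrays (9.57 and 9.13) were above both stage 21 arrays (8.32 and 8.74). The difference between the regions was not tested.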

How the results depend on the processing

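Of the recomputed counts of called genes among the 6, 124 kept within 1.5 times and 2 did not. The exceptions were the stage counts with array weights (1 gene, Hba-x at -1.71, adjusted p = 0.0363) and with robust eBayes (1 gene, Hba-x at -1.90, adjusted p = 0.0461). Leaving out each array in turn gave 3 to 4 called genes against the newborn, 0 to 0 in each region comparison and 0 to 0 between stages. Of single gene values, 725 kept direction and side of the threshold, 22 reversed, 2 lost and 7 gained a call. The cause of each was not tested. Lost were Slc4a1 against the newborn with no filter on dim probe sets (adjusted p = 0.0504) and without bladder replicate 8 (0.0516). Gained besides Hba-x between stages were, against the newborn, Hbb-bh1 and Hba-x with 3 reference samples (3.83 and 2.76, adjusted p = 0.0259 and 0.00501), both with title style as a block, which also enters 3 reference samples (3.57 and 2.71), and Hba-x with stage as a covariate (adjusted p = 0.0452).

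All reversed values lay below the threshold. Between bladder and urogenital sinus, quantile normalization gave 0.19 for Alas2 and 0.0045 for Rhag, centring on array medians 0.25 for Alas2, 0.38 for Rhag and 0.28 for Hbb-y, and the replicate block 0.0065 for Hbb-y. Between urethra and urogenital sinus, Slc4a1 had 0.058 when centred and 0.10 with array weights, Rhag -0.22 with title style, and Hbb-bh1 -0.28 with the replicate block, -0.13 with stage as a covariate and -0.034 with the lowest-mean probe set, an alternative chosen after seeing the data. Rhag had 0.044 between bladder and urethra with title style and -0.0031 between stages with no floor, and Alas2 -0.15 between stages without both arrays numbered 1. Leaving out single arrays spanned -0.59 to 0.13 for Alas2 (bladder minus urogenital sinus), and, for urethra minus urogenital sinus, -1.30 to 1.90 for Hbb-bh1, -0.17 to 1.60 for Hba-x and -0.80 to 0.79 for Slc4a1.

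Same-numbered arrays were checked for pairing: the deviations of 7 pairs correlated at -0.17 to 0.36, with 5 over 0.1. These values do not settle whether the numbers pair samples, and the main fit has no replicate block. With the number as a replicate block, 132, 0 and 140 genes were called between bladder and urogenital sinus, urethra and urogenital sinus, and bladder and urethra, against 382, 2 and 651 without it, and 0 of the 6 genes in each. The SE of Hbb-bh1 between bladder and urogenital sinus was 0.36 with the block (difference -0.99) and 1.73 without it. No paired analysis was possible because the reference arrays carry no shared numbers and each number lies in 1 stage, for the other comparisons.

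Counts over all genes moved more. Between bladder and urogenital sinus 193 were called with quantile normalization, 235 with no filter, 2668 with array weights, 766 without both arrays numbered 1 and 46 to 647 with 1 array left out; higher in the bladder were 122 of 382, against 95 of 193 with quantile normalization and 217 of 305 when centred. Between bladder and urethra 389 (218 higher) were called with quantile normalization, 328 (238 higher) when centred, 1873 with array weights, 55 with title style and 111 to 1292 with 1 array left out, against 651 (257 higher). Between urethra and urogenital sinus the other settings gave 0 to 22 genes, except 664 with array weights. Against the newborn 5119 were called with array weights, 5550 with 3 reference samples and 5653 with those 3 and title style together, against 2366. Between stages 359 were called with no floor, 1421 with array weights, 498 with robust eBayes and 3 without urogenital sinus replicate 7, against 0.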
